A study of Mus musculus with 8 samples.

Results

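The genes described are 8 members of the TCF1, LEF1 and Wnt-linked stemness group, *Tcf7*, *Lef1*, *Ctnnb1*, *Apc*, *Axin2*, *Sox4*, *Id3* and *Myb*, chosen by name from the 55335 genes of the count table. All 8 were present under their own symbol and all 8 had enough counts to be tested. RNA was sequenced from tumor-infiltrating lymphocytes (TILs) sorted as CD8 T cells that carry the activation marker CD44 and the inhibitory receptor PD-1, taken from MC38 tumors grown in C57BL/6 mice. The 4 wildtype (WT) samples came from Lsd1f/f mice, in which the gene of the histone demethylase LSD1 is flanked by loxP sites but intact, and the 4 LSD1-deficient (KO) samples from Cd4-Cre+Lsd1f/f mice, in which Cre driven by the Cd4 promoter acts in developing T cells, so that CD4 T cells also lose LSD1. WT samples were pools of 2 mice, KO samples were single mice (1 each), and 10000 to 20000 cells were used for a sample, so genotype and pooling cannot be told apart. The protocol gives day 18 after implantation and the series' design text gives 14 days, and the study's methods give young adult mice for all experiments. The WT samples are named S1 to S4 and the KO samples S5 to S8, and which of them is which numbered replicate is not known.

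TCF1, encoded by *Tcf7*, and LEF1 are transcription factors that bind the same short DNA motif through a high mobility group (HMG) box, and both are known for keeping naive, memory and progenitor exhausted CD8 T cells in a self-renewing state. In the canonical Wnt pathway, β-catenin (*Ctnnb1*) is marked for degradation by a complex of APC, AXIN proteins and kinases, and when a Wnt signal stops this, β-catenin enters the nucleus and activates genes bound by TCF/LEF factors. *Axin2* is a widely used target gene and feedback inhibitor of the pathway. *Sox4* encodes another HMG-box factor, *Id3* an inhibitor of E-protein transcription factors that marks memory-precursor and progenitor cells, and *Myb* a factor linked to stem-like CD8 T cells.

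Among the 8 genes, *Sox4* and *Axin2* rose in LSD1-deficient TILs, by 30.2-fold and 2.37-fold, and edgeR's quasi-likelihood test called 0 of the 8 lower, with 1, *Tcf7*, lower at an unadjusted p under 0.05. DESeq2 also called 0 of the 8 lower. *Tcf7* was lower in every KO sample than in every WT sample, at 0.689 of the WT level. It missed both thresholds in the edgeR fit used throughout and was not called under any alternative. *Lef1* was 1.64-fold higher and missed the adjusted p threshold. *Ctnnb1*, *Apc*, *Id3* and *Myb* were within 1.5-fold and were not called. Thus 2 of the 8 genes were called, both higher, against 4.9% of the 15378 genes tested that were called in either direction and 2.91% that were called higher and 1.99% lower. The 8 genes were chosen with earlier results of these data known, so these shares describe the genes and do not test the group.

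The upstream sequences are shown for *Axin2* and *Sox4*, the genes that rose, and for an internal start site of *Lef1*, the 1 window that held a TCF/LEF motif among those of 7 of the 8 genes. *Apc* was not searched. They are RefSeq sequences of GRCm38.p6, each the 250 bases before an annotated start, written 5′ to 3′ on the gene's strand. The motif was searched on both strands as any of the words CTTTGAA and CTTTGAT and CTTTGTA and CTTTGTT, and capitals mark a match. The windows are chr11:108920099-108920348 on the plus strand for *Axin2*, chr13:28953700-28953949 on the minus strand for *Sox4* and chr3:131156044-131156293 on the plus strand for *Lef1*, the last lying inside the gene.

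*Axin2*: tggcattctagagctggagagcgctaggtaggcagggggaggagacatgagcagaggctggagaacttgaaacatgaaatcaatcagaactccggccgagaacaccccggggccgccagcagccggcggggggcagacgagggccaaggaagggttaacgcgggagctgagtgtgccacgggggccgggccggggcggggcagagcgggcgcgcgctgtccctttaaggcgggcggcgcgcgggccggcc

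*Sox4*: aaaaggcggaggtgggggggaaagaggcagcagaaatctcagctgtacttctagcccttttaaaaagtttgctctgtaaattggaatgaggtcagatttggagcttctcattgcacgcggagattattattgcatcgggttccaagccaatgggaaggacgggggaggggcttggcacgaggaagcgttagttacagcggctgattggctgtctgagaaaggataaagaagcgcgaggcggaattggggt

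*Lef1*, internal start: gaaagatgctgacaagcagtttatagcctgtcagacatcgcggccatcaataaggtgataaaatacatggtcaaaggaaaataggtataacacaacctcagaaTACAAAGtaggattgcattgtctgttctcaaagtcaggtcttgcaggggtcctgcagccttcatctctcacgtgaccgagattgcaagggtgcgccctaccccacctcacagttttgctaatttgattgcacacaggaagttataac

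The match in the *Lef1* window, TACAAAG, ran from 147 to 141 bases before the start. The windows of *Axin2* and *Sox4* held no match, nor did the other windows listed for *Tcf7*, *Lef1*, *Ctnnb1*, *Id3* and *Myb*. Of all 32851 windows of the same length, 14.8% held a match, and of the 12404 windows of tested genes 10.4%. A match is a string of letters and not a measured site, and its absence says only that these letters are not in the window.

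The libraries held 11657807 to 30295406 counts on genes, and S8 was the deepest. *Kdm1a*, the targeted gene that encodes LSD1, averaged 44.9 ± 1.87 CPM (SD, n = 4) in WT TILs against 30.6 ± 4.03 CPM in KO TILs, without overlap between the groups. On the log2 scale, KO minus WT was -0.55 (standard error, SE, 0.14, edgeR quasi-likelihood adjusted p = 0.0163), which misses both thresholds. Which exons are deleted and how the counting treated strand are not given in the sources used here, and *Luzp1* lies across from *Kdm1a* on the opposite strand with 0 shared exon bases. The sorted cells carried their defining markers, *Cd8a* at 1340 CPM in WT and 1110 CPM in KO and *Pdcd1*, which encodes PD-1, at 610 and 486 CPM on average. *Cd44* was the 1 gene called among the 8 markers of the sorted cells, higher at 433 ± 39.7 CPM in WT and 785 ± 136 CPM in KO (SD, n = 4 each, log2 fold change 0.86, edgeR quasi-likelihood adjusted p = 0.000107), without overlap. The 17 macrophage and other myeloid markers summed to 367 to 1110 CPM in WT and 68.3 to 151 CPM in KO samples, highest in S3, and 13 of the 15 tested were called lower. CPM here are counts scaled to library size with edgeR's TMM factors, a call needed a fold above 1.5 and an adjusted p under 0.01 over all 15378 genes, and 3 counts correspond to 0.106 to 0.25 CPM, which covers counting error only.

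*Tcf7* (ENSMUSG00000000782.16, chromosome 11 of GRCm38 from 52252371 to 52283014, minus strand) was at 87.1, 124, 95.6 and 86.1 CPM in S1 to S4. In the KO samples S5 to S8 it was at 43.3, 80.5, 62.3 and 84.7 CPM. The highest KO sample, S8, lay just under the lowest WT sample, S4, and S5 was the lowest. The group means were 98.3 ± 17.8 CPM (SD, n = 4) and 67.7 ± 19 CPM (SD, n = 4), with a log2 fold change of -0.54 (SE 0.18, 95% interval -0.91 to -0.16, edgeR quasi-likelihood adjusted p = 0.0633). The groups did not overlap (two-sided exact permutation test, p = 0.0286, the lowest value that 4 against 4 samples can give), as in 17.3% of all genes tested, 8.28% with KO below WT and 8.99% with KO above. The interval runs past the fold change threshold of 1.5, so a fall of that size was not resolved with this number of samples. In a bulk sample, fewer *Tcf7*-expressing cells and less *Tcf7* RNA per cell cannot be told apart, and counts per gene do not separate the long form of TCF1, which binds β-catenin, from the short forms. The same holds for all genes below.

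*Lef1* (ENSMUSG00000027985.14, chromosome 3 from 131110471 to 131224356, plus strand), the closest relative of *Tcf7* in T cells, was at 34.6, 34.2, 33.2 and 23.4 CPM in S1 to S4. In S5 to S8 it was at 34.2, 51.1, 52.7 and 67.2 CPM. S5 fell within the WT range and the other 3 KO samples were above every WT sample. The WT mean of 31.4 ± 5.32 CPM compared with a KO mean of 51.3 ± 13.5 CPM (SD, n = 4 each), a log2 fold change of 0.71 (SE 0.19, 95% interval 0.31 to 1.11, edgeR quasi-likelihood adjusted p = 0.0206). With S5 left out the log2 fold change was 0.86 with an adjusted p of 0.00277, past both thresholds, and DESeq2 on all samples gave an adjusted p of 0.00589, so the call rests on 1 sample and on the test. Without S3 and S4, the WT samples with the most myeloid RNA, it was 0.58 with an adjusted p of 0.215, in a fit with fewer samples. S4 also had the least *Lef1* of the WT samples, and without S4 alone the edgeR quasi-likelihood adjusted p was 0.0754. An annotated gene on the opposite strand, *Gm43352*, shares 1208 exon bases with *Lef1* and held 4.33% as many counts, and *Gm42449*, on the same strand with 0 shared exon bases, held 9.59% as many.

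*Tcf7* and *Lef1* thus had fold changes of opposite sign, and their ratio within a sample does not depend on how libraries are scaled. The number of *Lef1* counts per *Tcf7* count was 0.398, 0.275, 0.347 and 0.272 in S1 to S4. It was 0.791, 0.635, 0.845 and 0.794 in S5 to S8. The groups did not overlap, and the means were 0.323 ± 0.0607 (SD, n = 4) and 0.766 ± 0.091 (SD, n = 4). S5, which had the least *Tcf7* and the least *Lef1* of the KO samples, was close to S7 and S8 in this ratio. Counts of *Axin2* per count of *Tcf7* went from 0.242 ± 0.0465 (SD, n = 4) in WT to 0.875 ± 0.281 (SD, n = 4) in KO, again without overlap. Counts of *Sox4* per count of *Tcf7* went from 0.0162 ± 0.0113 to 0.773 ± 0.246 (SD, n = 4 each), so that in S5 *Sox4* had more counts than *Tcf7*. The ratios were chosen after the values had been seen, and no test of them was made.

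**Figure D1:**
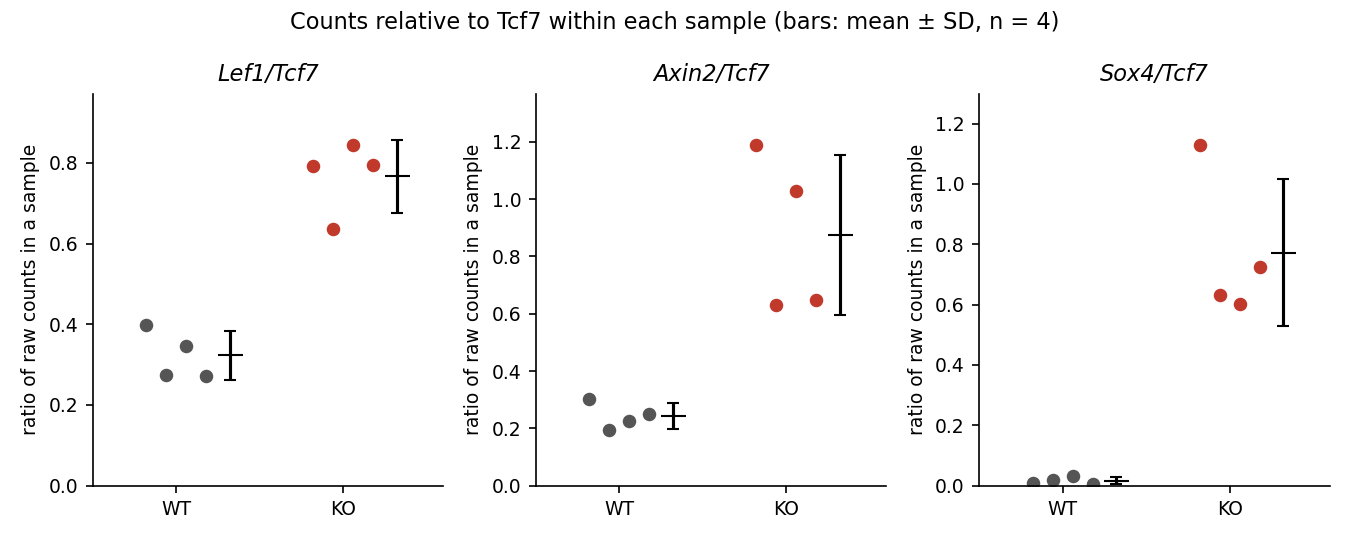
Ratio of raw counts within each sample for *Lef1*, *Axin2* and *Sox4* over *Tcf7* (vertical axes, no unit) in the 4 WT (gray) and 4 KO (red) samples, with mean and SD. The *Lef1* to *Tcf7* ratio lies between 0.272 and 0.398 in WT and between 0.635 and 0.845 in KO samples.

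**Figure D2:**
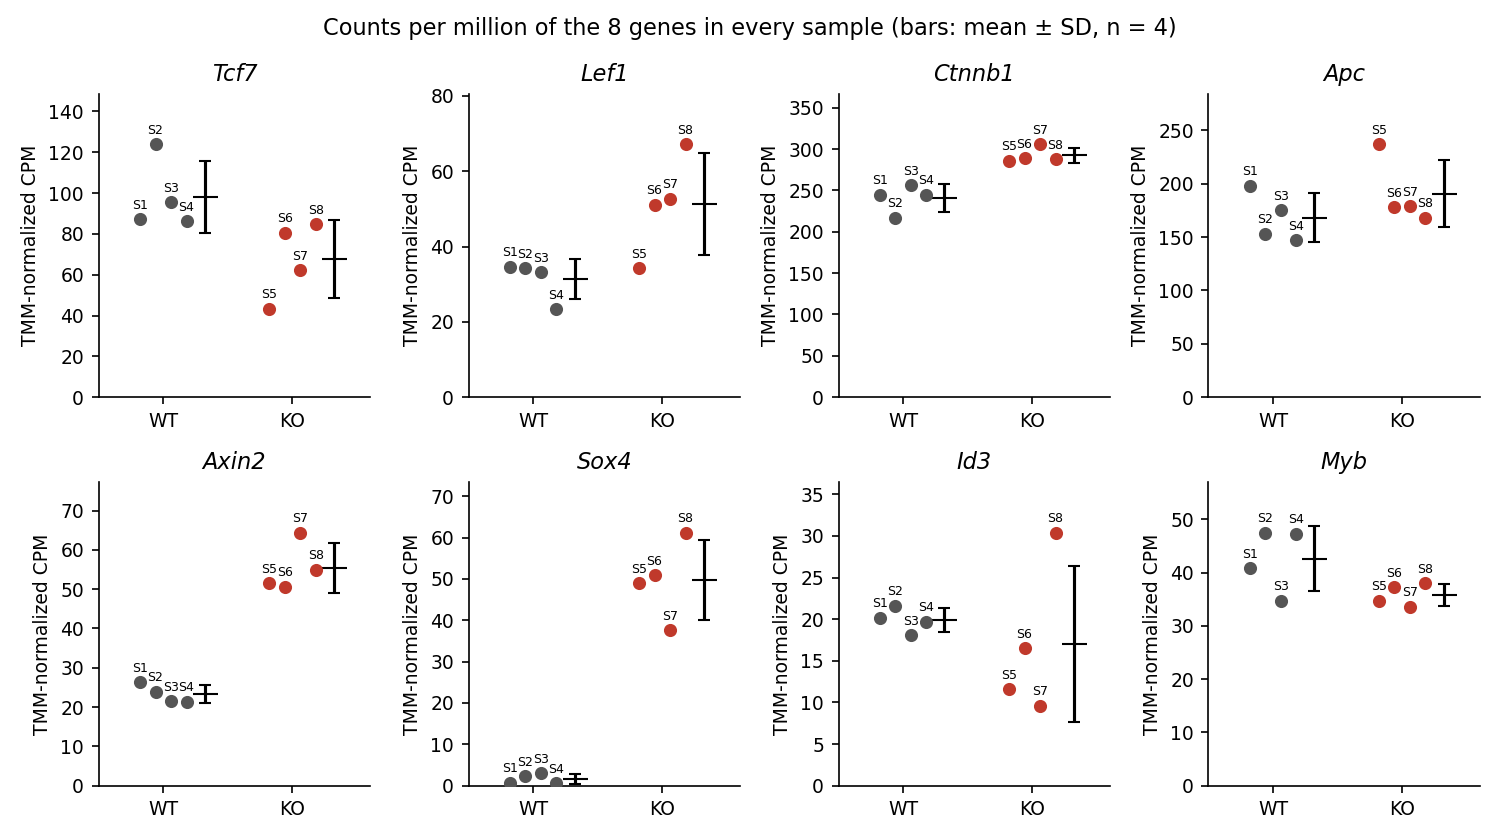
TMM-normalized CPM (vertical axes, linear from 0) of the 8 genes in each WT (gray, S1 to S4) and KO (red, S5 to S8) sample, with mean and SD. *Axin2* and *Sox4* separate the groups widely, *Tcf7* and *Ctnnb1* narrowly, and the KO samples spread more than the WT samples in *Lef1* and *Id3*. WT samples were pools of 2 mice and KO samples single mice.

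β-catenin and its scaffold were not called. *Ctnnb1* (ENSMUSG00000006932.17, chromosome 9 from 120929216 to 120960507), which encodes β-catenin, was at 245, 217, 256 and 245 CPM in S1 to S4. In S5 to S8 it was at 286, 289, 306 and 288 CPM, above every WT sample. On the log2 scale, KO minus WT was 0.28 (SE 0.09, edgeR quasi-likelihood adjusted p = 0.0537; exact permutation test, two-sided, p = 0.0286). Its 95% interval, from 1.07-fold to 1.39-fold, lies within the fold threshold of 1.5. *Apc* (ENSMUSG00000005871.15, chromosome 18 from 34220924 to 34322552), which encodes the scaffold of the destruction complex, was at 198, 153, 175 and 147 CPM in S1 to S4 and at 237, 178, 179 and 168 CPM in S5 to S8. The groups overlapped, with S5 highest, and the 95% interval of the fold ran from 0.943 to 1.36 (log2 fold change 0.18, adjusted p = 0.42).

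*Axin2* (ENSMUSG00000000142.15, chromosome 11 from 108920349 to 108950783, plus strand) was at 26.4, 23.9, 21.5 and 21.4 CPM in S1 to S4. In S5 to S8 it was at 51.5, 50.6, 64.4 and 55.0 CPM. The lowest KO sample had nearly as much again as the highest WT sample, and *Axin2* was close to even within each group. The rise from 23.3 ± 2.34 CPM to 55.4 ± 6.33 CPM (SD, n = 4 each) was a fold change of 2.37 with a 95% interval of 1.93 to 2.92 (edgeR quasi-likelihood adjusted p = 1.82e-05). It ranked 103 among the 15378 genes by p. *Axin1*, the paralog that serves as the standing scaffold of the complex, averaged 82.7 ± 8 CPM in WT and 86 ± 9.71 CPM in KO TILs (SD, n = 4 each), a log2 fold change of 0.06 with a 95% interval of -0.19 to 0.30.

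*Sox4* (ENSMUSG00000076431.4, chromosome 13 from 28948919 to 28953713, minus strand), a single-exon gene as annotated here, had 13, 41, 37 and 7 counts in S1 to S4. It had 747, 630, 450 and 1741 counts in S5 to S8. On the CPM scale it was at 0.756, 2.23, 3.02 and 0.577 in WT and at 49.0, 50.9, 37.6 and 61.2 in KO samples. All 4 WT samples had little *Sox4* and all 4 KO samples had much of it. The fold change of 30.2 had a 95% interval of 17.9 to 50.8 (log2 fold change 4.92, SE 0.36, edgeR quasi-likelihood adjusted p = 1.25e-07), and it ranked 22 among the genes tested by fold change. *Gm26735*, which shares 2616 exon bases with it on the opposite strand, had 0 counts in all samples.

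The other genes of the SoxC family were not called. *Sox12* was at 1.36 ± 0.89 CPM in WT and 3.92 ± 0.484 CPM in KO (SD, n = 4 each; edgeR quasi-likelihood adjusted p = 0.118), without overlap between the groups, and *Sox11* was below the filter, with counts in S7 alone. Markers of cells other than CD8 T cells were looked at beside *Sox4*. The 6 B cell markers summed to 1.71 to 3.43 CPM in WT and 1.86 to 5.71 CPM in KO samples, and neither of the 2 tested was called. *Cd79a* averaged 0.303 CPM in WT and 2.07 CPM in KO, without overlap, and *Cd79b* 1.81 and 1.28 CPM. *Krt8* and *Krt19*, keratins of epithelial tumor cells, had 0 counts in all samples, and *Epcam* averaged 0.403 CPM in WT and 0.41 CPM in KO. The 6 epithelial markers summed to 13.5 to 30.1 CPM in WT and 21 to 32.6 CPM in KO samples. Nearly all of this was *Cdh1*, at 13.4 to 28.9 CPM in WT and 21 to 31.7 CPM in KO samples, which was not called. The 6 fibroblast markers summed to at most 5.14 CPM in WT and 1.86 CPM in KO. The 5 endothelial markers summed to 20.5 to 26.8 CPM in WT and 56.2 to 77.6 CPM in KO samples, nearly all from *Pecam1*, an adhesion receptor also found on leukocytes, which was called higher (22.9 ± 3.06 and 63.7 ± 9.18 CPM, SD, n = 4 each, log2 fold change 1.48, edgeR quasi-likelihood adjusted p = 5.23e-06), while *Cdh5*, which defines endothelial cells, averaged 0.0291 and 0.0616 CPM. The 4 NK cell markers summed to 11.4 to 26 CPM in WT and 25.9 to 77.2 CPM in KO samples. This was mostly *Klrb1b*, the 1 of 3 tested that was called higher. *Klrb1c* also rose, from 0.459 CPM in WT to 3.86 CPM in KO, without overlap, and was not called (edgeR quasi-likelihood adjusted p = 0.0338). *Ncr1* was below the filter, at 0.0681 and 0.391 CPM. *Tyrobp*, of the same list, went the other way, at 5.47 CPM in WT and 0.889 CPM in KO, with S3 highest, as for the myeloid markers. Its groups did not overlap and it was not called (edgeR quasi-likelihood adjusted p = 0.0401). The 4 markers of CD4 and regulatory T cells summed to 40.1 to 57 CPM in WT and 121 to 155 CPM in KO samples, mostly *Zbtb7b*. Of the 4, 2 were called higher, *Zbtb7b* (44.6 CPM in WT and 102 CPM in KO) and *Cd40lg* (2.28 and 12.3 CPM). *Cd4* also rose, from 4.54 to 14.3 CPM, without overlap, and was not called (edgeR quasi-likelihood adjusted p = 0.0161). *Foxp3*, at 1.1 and 2.42 CPM, overlapped between the groups and was not called. The part of B cells, CD4 T cells, NK cells or endothelial cells in the rise of *Sox4* and *Axin2* was not tested. Without S3 and S4, the WT samples with the most myeloid RNA, the log2 fold changes were 5.04 for *Sox4* and 1.14 for *Axin2*, and both were still called.

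*Id3* (ENSMUSG00000007872.3, chromosome 4 from 136143497 to 136145755) was even among WT samples, at 20.2, 21.6, 18.1 and 19.7 CPM, and scattered among KO samples, at 11.6, 16.5, 9.6 and 30.4 CPM. S5, S6 and S7 were below every WT sample and S8 was above every WT sample. WT samples were pools of 2 mice and KO samples single mice, so genotype and pooling cannot be told apart in this spread. On the log2 scale, KO minus WT was -0.21 (SE 0.28, 95% interval -0.81 to 0.38, edgeR quasi-likelihood adjusted p = 0.712). Without S8 it was -0.66, with an adjusted p of 0.0756. *Id2*, which encodes the Id protein linked to effector cells, was at 375 ± 21 CPM in WT and 333 ± 43.9 CPM in KO (SD, n = 4 each; adjusted p = 0.326), and counts of *Id3* per count of *Id2* ran from 0.0509 to 0.0552 in WT and from 0.0244 to 0.0906 in KO samples.

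*Myb* (ENSMUSG00000019982.15, chromosome 10 from 21124935 to 21160984) was at 40.8, 47.5, 34.7 and 47.3 CPM in S1 to S4 and at 34.7, 37.2, 33.6 and 38.0 CPM in S5 to S8. The groups overlapped, and the 95% interval of the fold, 0.685 to 1.04, holds both no change and a fall of under 1.5-fold (edgeR quasi-likelihood adjusted p = 0.308).

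**Figure D3:**
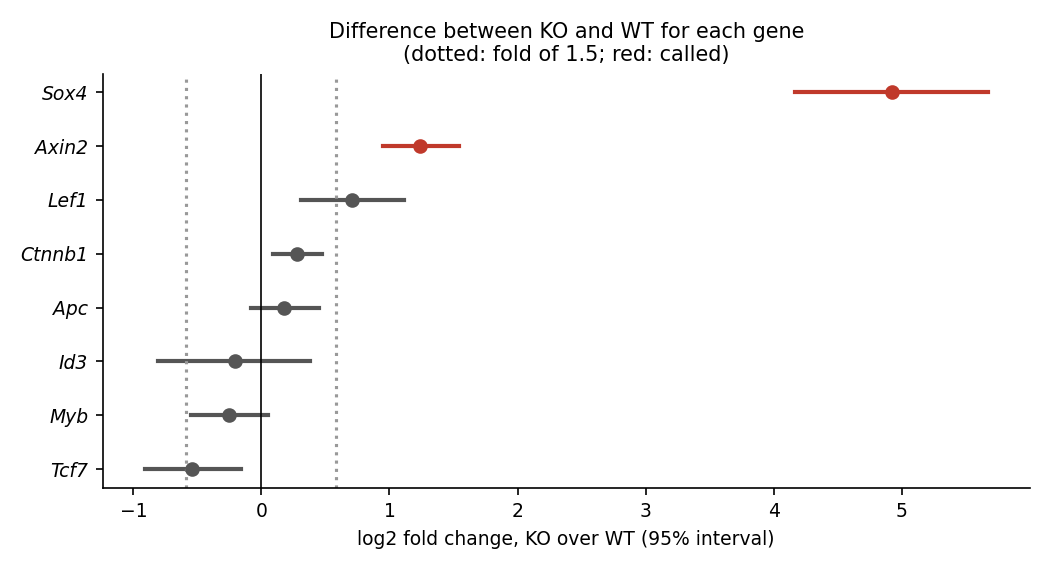
Log2 fold change of KO over WT (horizontal axis) for the 8 genes with 95% intervals from edgeR's quasi-likelihood fit. *Sox4* (4.92) and *Axin2* (1.24), in red, were called, and the dotted lines mark a fold of 1.5 in either direction.

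Per exon length, in RPKM (counts scaled to library size and exon length), *Ctnnb1* was the most abundant of the 8 genes in WT TILs, at 46.4 ± 3.24 RPKM (SD, n = 4), followed by *Tcf7* at 37.4 ± 6.79 RPKM. The samples of these neighbors overlapped. *Id3* at 11.1 and *Apc* at 10.4 RPKM overlapped with each other, as did *Myb*, *Axin2* and *Lef1* in sequence at 4.76, 4.24 and 3.57 RPKM. *Sox4* was last at 0.343 RPKM, below all others in every WT sample. In KO TILs, *Sox4* stood at 10.4 ± 2.02 RPKM (SD, n = 4), within the range of *Apc* at 11.8, *Axin2* at 10.1 and *Id3* at 9.5 RPKM. *Ctnnb1* at 56.3 and *Tcf7* at 25.8 RPKM were the highest and did not overlap, and *Lef1* at 5.84 and *Myb* at 4.01 RPKM were last and overlapped. The places of *Lef1* and *Sox4* in KO depend most on the length used. With the longest transcript in place of all exons, *Lef1* was at 14 RPKM in KO. *Sox4* then ranked 7 in KO in place of 4. Its samples, at 7.83 to 12.8 RPKM, no longer overlapped those of *Apc*, at 13.1 to 18.5 RPKM.

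Within a genotype, *Tcf7* and *Lef1* varied together, with a correlation of deviations from the genotype means of r = 0.79 over the 8 samples, the highest among the 28 pairs of the 8 genes, which ranged down to -0.73 for *Tcf7* and *Apc*. These are descriptions over few samples that differ in library depth. The genes most like *Tcf7* by this measure, of 7198 compared, were *Pik3c2a*, *Gpatch2l* and *Atp6v0d1* (r = 0.97, 0.96 and 0.96). Those most like *Lef1* were *Dennd2d*, *Cd28* and *Slc38a2* (r = 0.99, 0.97 and 0.97).

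Around these genes, 99 genes of the Wnt pathway were looked at in 6 lists, also chosen with earlier results of these data known. Of these, 49 had enough counts to be tested, 3 were called higher and 4 lower, and 42 were not called. The share called, 14.3%, compares with 4.9% of all genes tested, and the median log2 fold change was 0.02 against -0.01. The 20 genes with 0 counts in all samples were mostly ligands and secreted inhibitors.

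Ligands and their release came first. *Wls*, which encodes the carrier that brings Wnt proteins to the cell surface, rose from 39.6, 33.5, 27.1 and 22.7 CPM in S1 to S4 to 110, 111, 94.5 and 95.7 CPM in S5 to S8. On the log2 scale, KO minus WT was 1.74 (SE 0.15, edgeR quasi-likelihood adjusted p = 1.19e-06), and the groups were far apart. Among the 19 ligand genes, 3 were tested and none was called. *Wnt10b* was at 15.6 ± 2.25 CPM in WT and 25.2 ± 2.42 CPM in KO (SD, n = 4 each; adjusted p = 0.0157), and *Wnt10a* at 0.377 ± 0.449 and 4.18 ± 1.66 CPM (adjusted p = 0.0126), both named after their values were seen. Neither overlapped between the groups, and both were called by DESeq2 and at an adjusted p under 0.05 in place of 0.01, which 8.1% of all genes passed with the same fold. DESeq2 also called *Wnt6* higher, which was below the filter of the edgeR fit. It was at 0 CPM in every WT sample and at 0.162 to 1.64 CPM in KO samples, and was also named after its values were seen.

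Of 16 receptor genes, 7 were tested and 2 were called, both lower. *Fzd4*, a Frizzled receptor, was at 14.3, 11, 16.6 and 10.4 CPM in S1 to S4 and 2.56, 0.566, 1.84 and 0.528 CPM in S5 to S8 (log2 fold change -3.27, SE 0.45, edgeR quasi-likelihood adjusted p = 0.00013). *Fzd7* went from 5.38 ± 1.72 to 0.461 ± 0.55 CPM (SD, n = 4 each; log2 fold change -3.41, adjusted p = 0.00832). The co-receptor *Lrp6*, at 77.5 CPM in WT and 85.4 CPM in KO, and *Fzd5*, at 44.4 and 46.4 CPM, were not called. *Fzd4* and *Fzd7* were highest in S3, the sample with the highest sum of myeloid markers. The part of myeloid RNA in them was not tested. Without S3 and S4, *Fzd4* was still called (log2 fold change -3.22, adjusted p = 0.00457), and *Fzd7* was not (-3.21, adjusted p = 0.117). *Fzd4* was called with any 1 sample left out, and *Fzd7* only with S5 or S8 left out.

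Of 16 inhibitors that act outside the nucleus, 2 were tested and neither was called, with a median log2 fold change of -0.24. No gene of the destruction complex or the Dishevelled family was called. All 15 were tested, and edgeR's quasi-likelihood test called 0 of them, with 1 at an unadjusted p under 0.05 and a median log2 fold change of 0.06. That gene was *Csnk1a1*, named after its values were seen, a kinase that primes β-catenin for degradation, at 422 ± 17.7 CPM in WT and 340 ± 24.5 CPM in KO (SD, n = 4 each; adjusted p = 0.0324).

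Among nuclear cofactors and corepressors, 2 of 16 tested genes were called, both higher. *Tle1*, a Groucho-type corepressor that TCF/LEF factors recruit in the absence of β-catenin, was at 5.93, 6.43, 4.65 and 6.6 CPM in S1 to S4 and 37.7, 24.5, 30 and 33.5 CPM in S5 to S8. The lowest KO sample was far above the highest WT sample (log2 fold change 2.41, SE 0.2, edgeR quasi-likelihood adjusted p = 6.38e-07). *Tle3*, *Tle4* and *Tle5* had log2 fold changes of 0.02, -0.08 and -0.06 and were not called. *Ep300*, a histone acetyltransferase and coactivator of β-catenin, rose from 267 ± 19.2 to 418 ± 7.81 CPM (SD, n = 4 each; log2 fold change 0.65, adjusted p = 0.00011), just past the fold threshold. *Wls*, *Tle1* and *Ep300* were called under every alternative tried.

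**Figure D4:**
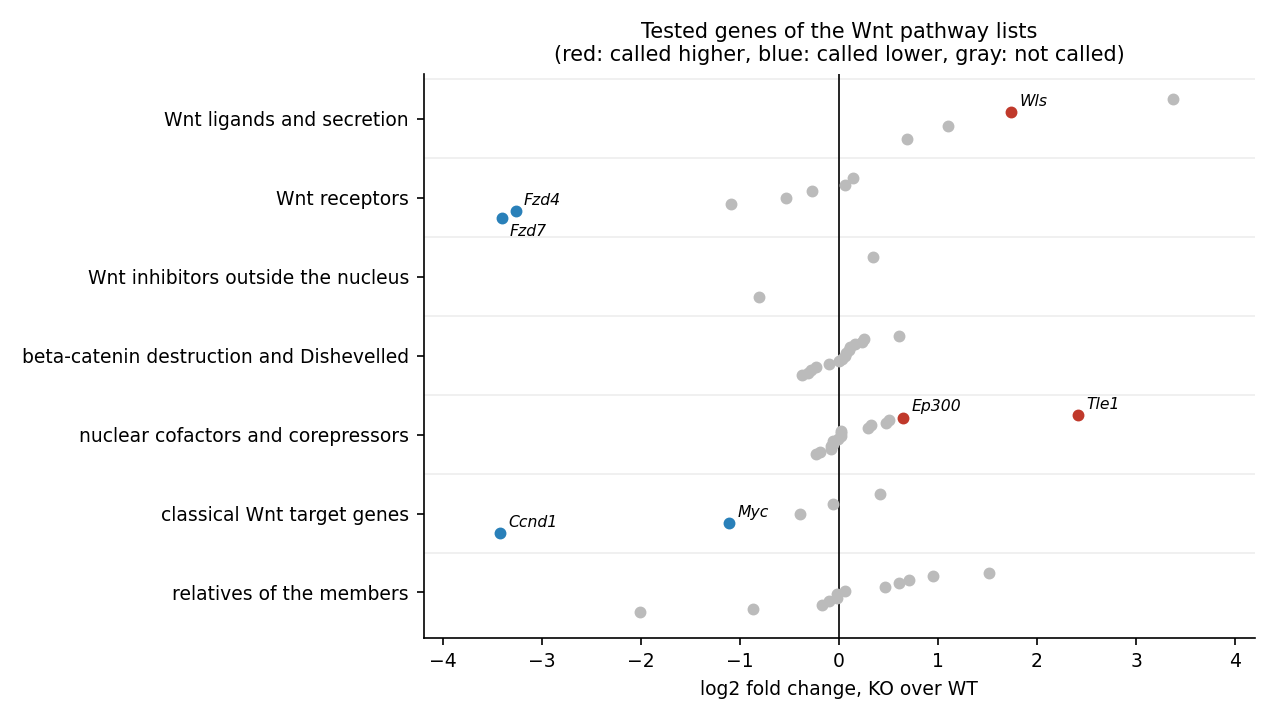
Log2 fold change of KO over WT (horizontal axis) of every tested gene in the 6 Wnt pathway lists and the list of relatives, 1 point per gene. Called genes are named (red higher, blue lower), with *Wls*, *Tle1* and *Ep300* higher and *Fzd4*, *Fzd7*, *Ccnd1* and *Myc* lower.

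Other genes often used as Wnt targets did not follow *Axin2*. Of 13, 5 were tested, none was called higher and 2 were called lower. *Myc*, which drives growth, was at 69.9, 72.1, 59.5 and 86.8 CPM in S1 to S4 and 25.4, 42.5, 23.6 and 41.4 CPM in S5 to S8 (log2 fold change -1.11, SE 0.19, edgeR quasi-likelihood adjusted p = 0.00084). *Ccnd1*, which encodes cyclin D1, was at 8.02, 11.6, 24.7 and 6.76 CPM in WT and 0, 3.31, 0.501 and 1.02 CPM in KO samples, with S3 highest, as for the myeloid markers (log2 fold change -3.43, adjusted p = 0.00408). *Myc* was called with any 1 sample left out, and *Ccnd1* lost its call without S2, S3, S7 or S8 and under DESeq2. Without S3 and S4, with fewer samples, neither was called, at log2 fold changes of -1.09 for *Myc* (adjusted p = 0.0142) and -3.04 for *Ccnd1* (adjusted p = 0.0728). The feedback genes *Rnf43* and *Znrf3*, ubiquitin ligases that remove Frizzled receptors, had log2 fold changes of -0.40 and -0.06 and were not called, and *Nkd1*, *Notum*, *Sp5* and *Lgr5* were below the filter.

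The remaining TCF/LEF genes had few counts. *Tcf7l1* was below the filter, at most 1.57 CPM in a WT sample and 0.106 CPM in a KO sample, and *Tcf7l2* was at 3 ± 1.91 CPM in WT and 0.739 ± 0.284 CPM in KO (SD, n = 4 each; adjusted p = 0.0738), with S3 highest. In all, 0 of the 12 relatives tested were called by edgeR's quasi-likelihood test and 3 were at an unadjusted p under 0.05. They were *Tcf4*, with the lowest p of them, *Tcf7l2* and *Sox12*. *Tcf4* encodes an E protein that Id proteins inhibit and is not a TCF/LEF factor. It was at 29.1 ± 6.03 CPM in WT and 47.7 ± 9.06 CPM in KO (SD, n = 4 each, edgeR quasi-likelihood adjusted p = 0.0132), without overlap between the groups. DESeq2 called 1 relative higher.

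Of 14 genes that mark progenitor or memory CD8 T cells, 5 were called higher and 1 lower, where 2.91% and 1.99% of all genes tested were. The median log2 fold change of the list was 0.15 against -0.01 over all genes tested. This list was also chosen with earlier results of these data known. *Slamf6*, *Xcl1* and *Il7r* had log2 fold changes of 1.51, 1.33 and 1.2, although the samples of *Xcl1* overlapped. Leaving out S1 or S2 lowered the count called higher to 3, and leaving out S8 raised the count called lower to 3. The count called lower was 2 without a filter on low counts and at an adjusted p under 0.05. *Ccr7*, the receptor that guides T cells into lymph nodes, was at 150, 200, 154 and 177 CPM in S1 to S4 and 95.4, 94.4, 72.4 and 101 CPM in S5 to S8 (log2 fold change -0.90, edgeR quasi-likelihood adjusted p = 0.000119). *S1pr1* and *Klf2*, genes of T cell homing named after their values were seen, were also scattered among KO samples, which were single mice where WT samples were pools. In S1 to S4, *Klf2* was at 53.8, 60.8, 37.4 and 32.3 CPM and *S1pr1* at 56.4, 54.2, 51.4 and 36.5 CPM. As for *Id3*, S5 to S7 were below every WT sample in *Klf2*, but not in *S1pr1*. In KO samples *Klf2* was at 16.7, 24.9, 25.1 and 85.0 CPM and *S1pr1* at 42.1, 60.0, 39.8 and 124 CPM. S8, the deepest library, was the highest of the KO samples in both, as in *Tcf7*, *Lef1*, *Sox4* and *Id3*.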

How the data were processed

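RNA of 8 samples (4 WT, 4 KO) was analysed from 1 table of raw counts per gene deposited by the authors, who, per the labels, used STAR, featureCounts and DESeq2 on a GRCm38 annotation. The columns carry numbers that match no sample title. Their groups were taken from the description of the groups supplied with the series and the legend of the study's sample plot, not from the labels, and every comparison rests on that assignment. No source says whether replicate samples came from separate experiments beyond the animals named.

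Counts were filtered with filterByExpr, scaled with TMM factors (0.9404 to 1.0458) and tested with edgeR 4.0.16 in R 4.3.3 by the quasi-likelihood test of KO against WT, with Benjamini-Hochberg adjustment over 15378 genes. Genes were called at a fold above 1.5 and an adjusted p under 0.01. The 8 members and all lists were chosen with earlier results of these data known. Named genes were all 8 members, *Kdm1a*, 6 fixed relatives (*Tcf7l1*, *Tcf7l2*, *Sox11*, *Sox12*, *Id2*, *Axin1*), the called genes of each list (the 4 with the largest absolute log2 fold change where more than 5 were called), and the 3 most alike genes for *Tcf7* and *Lef1*. Other list genes and markers were named after their values were seen. Single genes were also compared by an exact permutation test over 70 arrangements. RPKM used exon lengths of GENCODE M21. The 12 pairs of replicates all differed beyond sampling noise (median chi-square per gene 3.54 to 5.84). The tests were checked on simulated data. Alternatives were other scalings, filters, DESeq2 1.42.0, a GC offset and leaving out each sample. Leaving out S3 and S4 together was added after seeing the data.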

Additional observations from a re-analysis of the deposited data

Results flagged for a closer look

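Among 18 groups of 4 samples tested for a sample far from the others, 2 held one, where chance gives about 1 in 20 groups. In WT, *Lef1* was lowest in S4, at 4.56 on the log2 CPM scale where S1 to S3 were at 5.06 to 5.12, and the gap took up 0.892 of the range. In KO, *Ctnnb1* was highest in S7, at 8.26 against 8.16 to 8.17, with a gap of 0.866 of the range. Both ratios exceed Dixon's critical value for 4 samples. Without S4 the log2 fold change of *Lef1* was 0.59 (edgeR quasi-likelihood adjusted p = 0.0754), and it was not called.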

How the results depend on the processing

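*Axin2* and *Sox4* were called under every alternative tried, and no result changed sign among those with a test. *Lef1* passed the thresholds, with a log2 fold change of 0.71, without a filter on low counts (adjusted p = 0.000154), by DESeq2 and at an adjusted p under 0.05, and ranged from 0.55 to 0.86 with 1 sample left out, which made 3 members called higher in these cases and without S5. *Tcf7* was called lower in none of the settings, although each threshold was passed in some of them. With 1 sample left out, its log2 fold change ran from -0.66 to -0.37 (edgeR quasi-likelihood adjusted p 0.0282 to 0.231). Under the other alternatives it ran from -0.64 to -0.51, with adjusted p from 0.000774 to 0.157 by edgeR or DESeq2. Over all genes, 695 were called higher at an adjusted p under 0.05 and 243 without S3 and S4. Genes called lower numbered 531 without a filter, 504 by DESeq2, 551 at an adjusted p under 0.05 and 93 without S3 and S4. With 1 sample left out, 347 to 452 were higher and 199 to 303 lower, lowest without S2. Of the Wnt pathway genes, 6 were higher by DESeq2 and 5 at an adjusted p under 0.05, and 2 to 4 were lower with 1 sample left out and 1 without S3 and S4. The causes were not tested. No paired analysis was possible because the columns carry no replicate numbers. Depth limits genes near 3 counts, such as *Sox11*, and 4 samples per group limit changes under 1.5-fold.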
